A study of Homo sapiens with 9 samples.

Results

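The genes described here are 37 genes of cholesterol and fatty acid synthesis and of its control. They were chosen by name from the known pathways, with earlier results of these data known. Their RNA was read on Affymetrix arrays in the human cholangiocarcinoma cell line HCCC-9810. Of the 37, 34 had at least 1 probe set annotated to that gene alone, out of 18132 such genes on the array. These 34 were read by 90 probe sets, between 1 and 5 each, out of 49293 probe sets without controls. The squalene synthase FDFT1, the lanosterol demethylase CYP51A1 and the fatty acid activating enzyme ACSL3 had no probe set annotated to 1 symbol and have no value here. The elongase ELOVL6 lay below the filter on dim signals and was kept out of the tests over genes, which left 33 genes tested.

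The study compared 3 groups of 3 arrays, which the labels call biological replicates. A p-value here is set by how far such replicates of 1 line lie apart. One group was transfected with small interfering RNAs against BAP1, a nuclear deubiquitinase that acts on histones. Another received small interfering RNAs against MBD5, a member of the methyl-CpG-binding domain family. The third was the control, which the sample titles call si-Control and other label fields call a control shRNA. The first name is kept below, since the labels do not settle which of these the cells received. Transfection time, dose and the number of different RNAs per target are not given in the sources used here, and all 9 arrays come from that cell line.

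Cells build cholesterol from acetyl-CoA by the mevalonate pathway, which leads through isopentenyl and farnesyl diphosphate to squalene, and then by a series of ring and side chain reactions to the sterol. Fatty acids start from the same acetyl-CoA, which acetyl-CoA carboxylase turns into malonyl-CoA for fatty acid synthase, and elongases and desaturases then lengthen and unsaturate the chains. Both arms are under the SREBP transcription factors, which stay in the endoplasmic reticulum with SCAP and the INSIG proteins when sterols are plentiful and move to the Golgi to be cut and released when sterols are scarce. SREBPs bind sterol regulatory elements and usually act together with NF-Y and Sp1 bound nearby.

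Promoter sequence was taken from RefSeq on GRCh38.p14, for the window from 250 bases before to 50 bases after each annotated start. A window was found for 33 of the 37 genes, with 45 windows in all, and for none of FDFT1, SQLE, ACAT2 and FASN. On either strand, the NF-Y box CCAAT stood in the windows of 24 of the 33 genes (72.7%), against 42.1% of protein-coding genes and 39.7% of all genes in that table. The Sp1 box GGGCGG stood in 30 of 33 (90.9%), against 64.3% of protein-coding genes and 48.3% of all genes. The median G and C content was 67.7% in the members' windows and 62.3% in those of protein-coding genes, and GGGCGG is itself made of these bases. The sterol regulatory element form TCACNCCAC stood in 1 of the 33 (3.03%), against 1.51% of protein-coding genes and 1.39% of all genes, and that 1 gene was SREBF2. The E-box CACGTG, which SREBPs can also bind, stood in 5 of 33 (15.2%), against 10.9% of protein-coding genes and 8.77% of all genes. By role, the NF-Y box was found in 5 of 6 mevalonate pathway genes, 8 of 10 genes from squalene to cholesterol, and 4 of 4 genes of acetyl-CoA and malonyl-CoA supply. It was found in 4 of 6 genes of fatty acid synthesis, elongation and desaturation, in 2 of 5 SREBP control genes and in 1 of 2 sterol transport genes. A match is a run of letters and not a measured site, and genes with several starts have several windows.

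Because none of the 9 members that passed the test of expression and had a window held a sterol regulatory element, the windows of the 3 members with the smallest p-values are shown, together with that of SREBF2, which was chosen after the matches were seen. Each line gives the 250 bases before the start, 5′ to 3′ on the gene's own strand, with NF-Y boxes (CCAAT, or ATTGG where the box lies on the other strand) and the sterol regulatory element in capitals.
ELOVL5, chr6:53348951-53349200, minus strand: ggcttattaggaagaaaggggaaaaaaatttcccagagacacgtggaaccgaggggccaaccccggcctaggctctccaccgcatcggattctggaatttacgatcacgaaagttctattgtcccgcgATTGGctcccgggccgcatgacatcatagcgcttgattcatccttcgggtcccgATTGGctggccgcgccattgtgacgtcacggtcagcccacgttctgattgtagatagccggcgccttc
ACACA, chr17:37359097-37359346, minus strand: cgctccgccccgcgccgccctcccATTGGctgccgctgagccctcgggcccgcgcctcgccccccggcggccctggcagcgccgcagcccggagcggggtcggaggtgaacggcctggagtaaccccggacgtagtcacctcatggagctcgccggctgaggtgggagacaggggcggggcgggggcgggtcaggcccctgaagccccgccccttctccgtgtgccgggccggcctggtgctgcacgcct
MSMO1, chr4:165327419-165327668, plus strand: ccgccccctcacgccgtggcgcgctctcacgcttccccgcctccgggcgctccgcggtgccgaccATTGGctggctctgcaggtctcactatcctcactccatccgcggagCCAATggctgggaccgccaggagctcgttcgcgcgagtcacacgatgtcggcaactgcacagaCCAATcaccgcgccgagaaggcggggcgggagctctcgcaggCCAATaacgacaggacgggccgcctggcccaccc
SREBF2, chr22:41832855-41833104, plus strand: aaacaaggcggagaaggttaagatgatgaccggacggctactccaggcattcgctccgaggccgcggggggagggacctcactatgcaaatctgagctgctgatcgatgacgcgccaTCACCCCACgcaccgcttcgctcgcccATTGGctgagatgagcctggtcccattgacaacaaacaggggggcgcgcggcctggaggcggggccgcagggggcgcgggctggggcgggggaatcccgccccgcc
MSMO1 held 4 NF-Y boxes, at 185, 139, 76 and 34 bases before the start, and ELOVL5 held 2, at 122 and 68. The ACACA window shown is 1 of 3 annotated for that gene, chosen after the matches were seen, and held 1 NF-Y box and 6 Sp1 boxes. The others differ from it, 1 with 0 NF-Y and 5 Sp1 boxes and 1 with 2 NF-Y and 0 Sp1 boxes, and the arrays do not show which start the cells use. SREBF2 held its sterol regulatory element 133 bases before the start and an NF-Y box at 106.

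The arrays were close to each other as a whole. Their median intensities, on the linear scale deposited, ran from 36.9 to 38.2, and correlations of log2 intensity over probe sets ran from 0.996 to 0.998 within a group and from 0.993 to 0.997 between groups. The ratio of 3′ to 5′ signal of ACTB, a measure of RNA and labelling quality, was 11.1 ± 0.31 with si-BAP1 and 12.2 ± 0.52 in controls (SD, n = 3 each). All 3 si-BAP1 arrays lay below all controls (exact two-sided permutation test, p = 0.1, the smallest that 3 against 3 allows), and the part of this in the si-BAP1 results was not tested. With si-MBD5 the ratio was 12.3 ± 0.715 (exact permutation p = 0.8 against controls), and that of GAPDH lay between 1.03 and 1.09 on every array. The ACTB ratios with si-BAP1 (10.8 to 11.4) also lay below all with si-MBD5 (11.6 to 13, exact permutation p = 0.1). The part of this in the differences between the knockdowns was not tested. The ACTB ratio ran from 10.8 to 13 over all arrays, so its 5′ signal was weak beside its 3′ signal in every group. What this did to single probe sets was not tested. The knockdown check was weak. The brighter of 2 MBD5 probe sets read 6.17 ± 0.056 with si-MBD5 and 7.04 ± 0.13 in controls (exact permutation p = 0.1). It did not pass in a limma fit without the filter (adjusted p = 0.308). The dimmer read 2.34 ± 0.081 with si-MBD5 and 2.39 ± 0.37 in controls (exact permutation p = 0.8, limma adjusted p = 0.953). Both lay far below the filter, and BAP1 itself was not analysed here. Of 9 biliary epithelial markers with a probe set, 6 lay above the filter, among them KRT7, KRT8 and KRT18, while KRT19, EPCAM and CDH1 did not. The summed biliary marker intensity was 4281 to 4632 in controls, 4399 to 4511 with si-BAP1 and 3964 to 4240 with si-MBD5, lowest in every si-MBD5 array. Summed hepatocyte markers, 2 of 10 above the filter, ran from 175 to 207.1 over all arrays, and summed fibroblast and endothelial markers, 5 of 10, from 257.8 to 299.2. Summed immune markers, 3 of 9, ran from 197.7 to 228.5, and no marker gene was listed at 0. The groups overlapped in all of these but the biliary sum, whose part in the si-MBD5 results was not tested. Single markers past the limma threshold moved both ways: with si-BAP1 KRT8 rose (log2 0.31) and CLDN4 (-0.33) and KRT7 (-0.15) fell, and with si-MBD5 SOX4 (-0.30) and KRT7 (-0.19) fell. The pericyte and fibroblast receptor PDGFRB rose with both (0.16 and 0.24), and the part of these markers in the members' results was not tested. The arrays read RNA from whole cultures, so a change in the share of some cells and a change of RNA per cell cannot be told apart.

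In si-BAP1 cells the members moved in both directions and mostly by little. ACACA, MVK, EBP and ACAT2 rose, and ELOVL5, ACSS2 and SCD fell, while 26 of 33 members did not pass the test. The test was limma over 12434 genes on log2 of intensity plus 16, with each gene read from its brightest probe set and called at a Benjamini-Hochberg adjusted p below 0.05. The 7 of 33 members past the threshold make 21.2%, and 23.5% of all genes tested passed. The 4 that rose make 12.1%, against 12.4% of all genes, and the 3 that fell make 9.09%, against 11.1%. These shares are near those of all genes, so the count is not a result about these pathways. The members' median log2 fold change was 0.04, against 0.00 over all genes. Of the 33 members 21 were above 0, against 50.2% of all genes, which was not tested. The members that did not pass ran from -0.11 for STARD4 to 0.19 for MSMO1. The count was 12 with the mean of each gene's probe sets and 16 with array weights.

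In si-MBD5 cells FDPS and ACAT2 rose, and MSMO1, ELOVL5, IDI1 and ACSS2 fell. These 6 of 33 make 18.2%, against 16.3% of all genes tested in limma with the same threshold. The 2 that rose make 6.06%, against 7.29% of all genes, and the 4 that fell make 12.1%, against 8.99%. Again the shares are near the background. The median log2 fold change of the members was 0.01, against 0.00 over all genes, and 27 members that did not pass ran from -0.15 for NPC1 to 0.12 for MVK. Above 0 were 19 of the 33, against 50% of all genes. The count was 3 when si-Control replicate 2 was left out and 13 with array weights. Both knockdowns were set against the same 3 control arrays, so their values are given side by side and no overlap between them is read as a result.

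Between the knockdowns, MSMO1 and ACACA were higher in si-BAP1 cells, and ELOVL5 and SCD were lower. These 4 of 33 make 12.1%, against 9.97% of all genes. The 2 higher and the 2 lower members make 6.06% each, against 5.76% and 4.21% of all genes. Above 0 were 24 of the 33, against 51.5% of all genes, which was not tested. The count was 2 without si-MBD5 replicate 1 and 7 with array weights. Under quantile normalization the calls over all genes changed balance, with 603 higher and 711 lower in place of 716 and 524, while the members stayed at 2 and 2. Among members, quantile normalization gave 7 higher and 3 lower for si-BAP1 against control and 4 and 4 for si-MBD5 against control, and median centring gave 2 and 1 between the knockdowns.

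**Figure D1:**
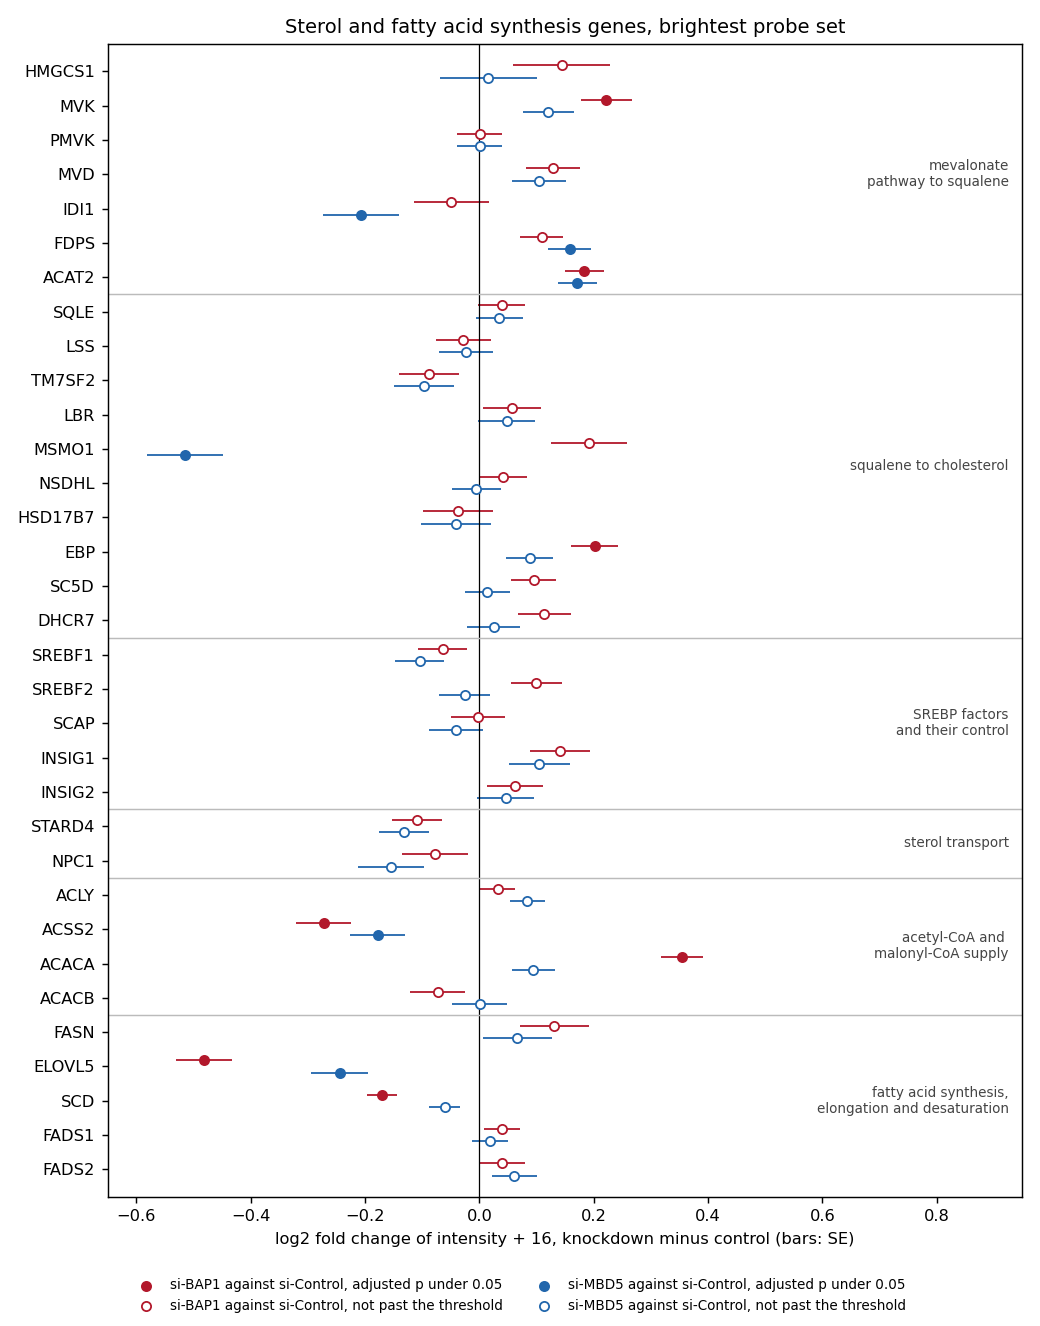
Log2 fold change of intensity plus 16 (x axis, knockdown minus control, bars 1 SE) of the 33 tested members, grouped by role, with si-BAP1 in red and si-MBD5 in blue and filled points for adjusted p below 0.05 in limma. Most points lie within 0.2 of 0, while ELOVL5 reaches -0.48 and ACACA 0.35 with si-BAP1, and MSMO1 reaches -0.51 with si-MBD5.

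Among the 7 tested genes of the mevalonate pathway to squalene, 2 rose and none fell with si-BAP1, and 2 rose and 1 fell with si-MBD5. That is 28.6% and 42.9% past the threshold, against 23.5% and 16.3% of all genes, from few genes. Between the knockdowns 0 of 7 passed in limma, against 9.97% of all genes, with 2 at an unadjusted p below 0.05. ACAT2, the cytosolic thiolase that joins acetyl-CoA units at the start of the pathway, read 907.4, 889.6 and 886.3 on the control arrays, 995.9, 1019 and 1039 with si-BAP1, and 971.5, 1030 and 1027 with si-MBD5. Every knockdown array lay above every control. The log2 fold change was 0.18 ± 0.034 (SE) with si-BAP1 (limma adjusted p = 0.00146) and 0.17 ± 0.034 with si-MBD5 (adjusted p = 0.00394). The 2 other ACAT2 probe sets passed in the same direction in both comparisons, with log2 fold changes from 0.14 to 0.23.

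MVK, the kinase that phosphorylates mevalonate, read 138.5, 142.6 and 139.6 in controls, 172.4, 159.1 and 167.5 with si-BAP1, and 160.1, 150.8 and 150.8 with si-MBD5. Both knockdowns lay wholly above the controls, and only the si-BAP1 difference passed the test. It was 0.22 ± 0.044 on the log2 scale (limma adjusted p = 0.0023), and that of si-MBD5 was 0.12 ± 0.044 (adjusted p = 0.0859). The 2 knockdowns did not differ past the threshold (0.10, adjusted p = 0.185). A dimmer MVK probe set gave 0.27 with si-BAP1 (adjusted p = 0.0321 over probe sets).

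FDPS, which makes farnesyl diphosphate, the branch point between sterols and prenylated proteins, read 877, 842.2 and 820.7 in controls, 873.1, 941.4 and 929.5 with si-BAP1, and 951.7, 941.9 and 944.8 with si-MBD5. The si-MBD5 arrays were tight and above all controls, while 1 si-BAP1 array fell within the control range. FDPS rose by 0.16 ± 0.038 with si-MBD5 (limma adjusted p = 0.0115), and this did not hold when the second control array was left out (adjusted p = 0.0512). With si-BAP1 the log2 fold change was 0.11 ± 0.038 (adjusted p = 0.052).

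IDI1, the isomerase that interconverts the isoprene building blocks, read 112.6, 121.1 and 124.5 in controls, 108.5, 120.2 and 115.9 with si-BAP1, and 97.11, 114.6 and 92.96 with si-MBD5. The second si-MBD5 array lay within the control range. The log2 fold change with si-MBD5 was -0.21 ± 0.066 (limma adjusted p = 0.048), and the call was lost in 11 of 22 alternatives, with adjusted p-values up to 0.162. A dimmer IDI1 probe set read 83.13, 98.66 and 99.62 in controls and 67.62, 77.24 and 65.30 with si-MBD5, with no overlap and a log2 fold change of -0.35 ± 0.070 (adjusted p = 0.00516 over probe sets). With si-BAP1 neither probe set passed.

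HMGCS1, the synthase that makes HMG-CoA, gave a different answer on each of its 2 probe sets. The brighter one, which stands for the gene in the tests above, read 383, 410.7 and 460.2 in controls, 447, 473.9 and 466 with si-BAP1, and 447, 469.8 and 356.4 with si-MBD5. These ranges overlap, and the log2 fold changes were 0.14 ± 0.085 (limma adjusted p = 0.269) and 0.02 ± 0.085 (adjusted p = 0.934). The dimmer one read 253.3, 256 and 265 in controls, 379.4, 411.8 and 386.6 with si-BAP1, and 295.9, 309.2 and 286.4 with si-MBD5. Here the 3 groups were fully separate. The log2 fold change was 0.58 ± 0.045 with si-BAP1 (adjusted p = 1.84e-06 over probe sets) and 0.19 ± 0.045 with si-MBD5 (adjusted p = 0.0136), and the knockdowns differed by 0.38 (adjusted p = 0.000193). The deposited values do not tell which of the probe sets follows the transcript that makes the enzyme. PMVK and MVD, the next kinase and the decarboxylase, did not pass, with PMVK at 0.00 in both knockdowns and MVD at 0.13 with si-BAP1 (adjusted p = 0.0678) and 0.10 with si-MBD5.

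**Figure D2:**
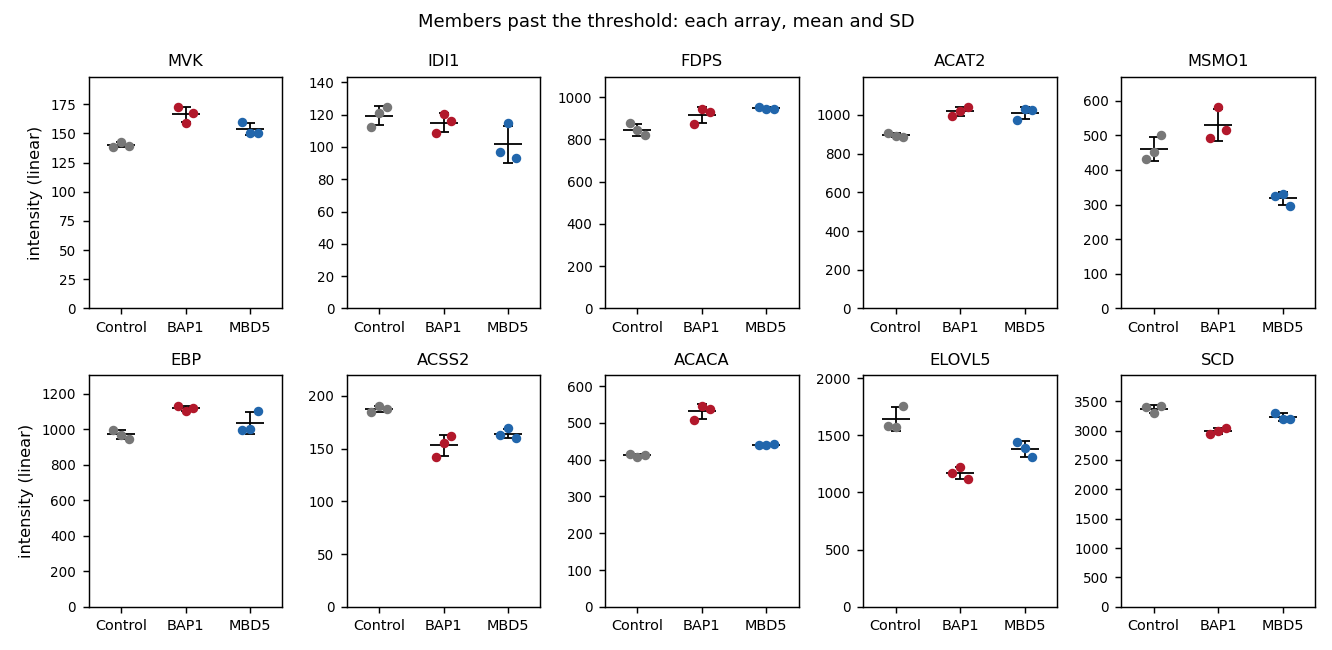
Intensity on the linear scale (y axis, from 0) on each of the 9 arrays for the 10 members past the threshold in at least 1 comparison, with horizontal lines for the mean and bars for 1 SD (n = 3). MSMO1 is low in the si-MBD5 arrays (296.2 to 331.2) and not in the si-BAP1 arrays (491.3 to 580.8), while ELOVL5 is low in both and ACACA is high with si-BAP1 (509.2 to 546.9).

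From squalene to cholesterol, 1 of 10 tested genes rose with si-BAP1 and none fell, 1 fell with si-MBD5 and none rose, and 1 differed between the knockdowns. Each count is 10%, against 23.5%, 16.3% and 9.97% of all genes. MSMO1, the methyl sterol oxidase that starts removal of the C4 methyl groups, showed the largest difference among the 33 tested members. It read 432, 450.9 and 500.2 in controls, 491.3, 580.8 and 515.6 with si-BAP1, and 325.6, 331.2 and 296.2 with si-MBD5. Every si-MBD5 array lay below every control, while 1 of 3 si-BAP1 arrays lay within the control range and the others above it. MSMO1 fell 1.43-fold with si-MBD5 (log2 -0.51 ± 0.066, limma adjusted p = 0.000189). With si-BAP1 the log2 fold change was 0.19 ± 0.066 (adjusted p = 0.0522). The direct difference between the knockdowns was 0.71 ± 0.066 (adjusted p = 2.34e-05), or 1.63-fold.

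The other MSMO1 probe sets bear on how firm this is. One with a mean intensity of 72.6 gave -0.19 with si-MBD5 (limma adjusted p = 0.0806 over probe sets), 0.24 with si-BAP1 (adjusted p = 0.0178) and 0.43 between the knockdowns (adjusted p = 0.0013). One with a mean of 48.5 gave -0.42 with si-MBD5 (adjusted p = 0.00808), 0.15 with si-BAP1 (adjusted p = 0.295) and 0.57 between the knockdowns (adjusted p = 0.00183). The 3 probe sets above the filter thus had the same signs in all 3 comparisons, and the difference between the knockdowns passed on each. Without probe sets whose names mark possible cross-hybridization, the gene was read from the first of these dimmer ones, and the si-MBD5 value was -0.19 (adjusted p = 0.0734 over genes).

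EBP, the sterol isomerase that moves the double bond in the ring, read 996.1, 968.6 and 944.8 in controls, 1132, 1103 and 1117 with si-BAP1, and 992.4, 1003 and 1104 with si-MBD5. The si-BAP1 arrays lay above all controls, and the si-MBD5 arrays overlapped with them. EBP rose by 0.20 ± 0.041 with si-BAP1 (limma adjusted p = 0.0027), and with si-MBD5 the log2 fold change was 0.09 (adjusted p = 0.177). Its second probe set also passed with si-BAP1, at 0.15 (adjusted p = 0.0395 over probe sets).

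The remaining genes of this arm did not pass when read from their brightest probe sets. These were the epoxidase SQLE, the cyclase LSS, the sterol reductases TM7SF2, LBR and DHCR7, the dehydrogenases NSDHL and HSD17B7, and the desaturase SC5D. DHCR7, which carries out the last step of one route to cholesterol, had the highest log2 fold change of these, 0.11 with si-BAP1 (limma adjusted p = 0.0984), and TM7SF2 the lowest, -0.10 with si-MBD5 (adjusted p = 0.247). For SQLE, 1 of 4 probe sets passed with si-BAP1 (0.16, adjusted p = 0.0383 over probe sets), from 178.2, 189.6 and 177 in controls to 203.2, 208.3 and 204.8. For SC5D, also 1 of 4 passed with si-BAP1 (0.19, adjusted p = 0.0389), with readings of 214.9, 217.9 and 240.9 in controls and 256.9, 282.7 and 237 with si-BAP1, which overlap.

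Of the genes that govern the pathway, single probe sets of INSIG1, INSIG2 and SREBF2 passed, but none of the brightest did. Of SREBF1, SREBF2, SCAP, INSIG1 and INSIG2, 0 of 5 passed in limma in any of the 3 comparisons on the brightest probe set. At an unadjusted limma p below 0.05 there were 2, 1 and 1 for si-BAP1, si-MBD5 and their difference. Of all genes, 23.5%, 16.3% and 9.97% passed, so 0 of 5 is not a result about these genes. SREBF1, whose product drives mainly fatty acid genes, read 235.9, 236.0 and 236.3 in controls, 225.4, 222.1 and 227.8 with si-BAP1, and 205.4, 222.8 and 227.8 with si-MBD5. Both knockdowns lay below the controls by small amounts, -0.06 (adjusted p = 0.342) and -0.10 (adjusted p = 0.129). SREBF2, whose product drives mainly sterol genes, read 119.5, 118.6 and 112.6 in controls, 124.2, 122.8 and 132.2 with si-BAP1, and 113.8, 116.3 and 113.5 with si-MBD5. The si-BAP1 arrays lay above the others, and no comparison passed (0.10 with si-BAP1, adjusted p = 0.132). On the dimmest of its 3 probe sets the knockdowns differed by 0.18 (adjusted p = 0.0187 over probe sets). SCAP, the escort of both factors, was at 0.00 with si-BAP1 and -0.04 with si-MBD5.

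INSIG1, which retains the SCAP complex and is itself a target of SREBPs, read 1020, 1074 and 1088 in controls, 1057, 1223 and 1241 with si-BAP1, and 1151, 1168 and 1106 with si-MBD5 on its brightest probe set. The first si-BAP1 array overlapped with the controls, and the log2 fold change was 0.14 ± 0.053 (limma adjusted p = 0.0735). Its other probe sets were tighter. One read 589.1, 588.1 and 603.4 in controls, 672, 699.7 and 708.8 with si-BAP1, and 647.5, 652.1 and 649.5 with si-MBD5, and passed in both comparisons (0.22, adjusted p = 0.000597, and 0.13, adjusted p = 0.0305, over probe sets). The other passed with si-BAP1 only (0.19, adjusted p = 0.00453, against 0.06, adjusted p = 0.399, with si-MBD5), and the knockdowns did not differ past the threshold on it (adjusted p = 0.0718). All 3 INSIG1 probe sets were above 0 in both comparisons.

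INSIG2, the related retention protein, had probe sets that disagreed in sign. The brightest read 105.1, 101.2 and 104.5 in controls, 102.2, 116.3 and 108.5 with si-BAP1, and 105.1, 105.1 and 112.2 with si-MBD5, with log2 fold changes of 0.06 and 0.05 that did not pass. A dimmer one read 104.4, 104.4 and 113.3 in controls, 88.35, 93.02 and 91.02 with si-BAP1, and 87.69, 93.02 and 81.81 with si-MBD5, below all controls, and fell in both comparisons. The values were -0.21 ± 0.052 (limma adjusted p = 0.0116 over probe sets) and -0.25 ± 0.052 (adjusted p = 0.00587). The third probe set also had negative values, -0.13 and -0.14, which did not pass.

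The sterol transporters STARD4, which carries cholesterol between membranes, and NPC1, which exports it from lysosomes, had negative values in both knockdowns on their brightest probe sets. In limma 0 of 2 passed in each of the 3 comparisons, with 1, 2 and 0 at an unadjusted p below 0.05 for si-BAP1, si-MBD5 and their difference. With 23.5%, 16.3% and 9.97% of all genes past the threshold, 0 of 2 is not a result about them. STARD4 read 116.2, 115.1 and 117.5 in controls, 109.2, 104.6 and 106.1 with si-BAP1, and 99.96, 106.5 and 107.9 with si-MBD5. Both knockdowns lay below all controls, with log2 fold changes of -0.11 (adjusted p = 0.0894) and -0.13 (adjusted p = 0.0555). NPC1 was at -0.08 (adjusted p = 0.403) and -0.15 (adjusted p = 0.0916), and its si-BAP1 arrays overlapped with the controls. A dim NPC1 probe set below the filter (mean 20.6) had the opposite sign with si-BAP1, where its arrays lay above all controls. In the limma fit without the filter it was at 0.13 with si-BAP1 (adjusted p = 0.138) and -0.04 with si-MBD5.

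**Figure D3:**
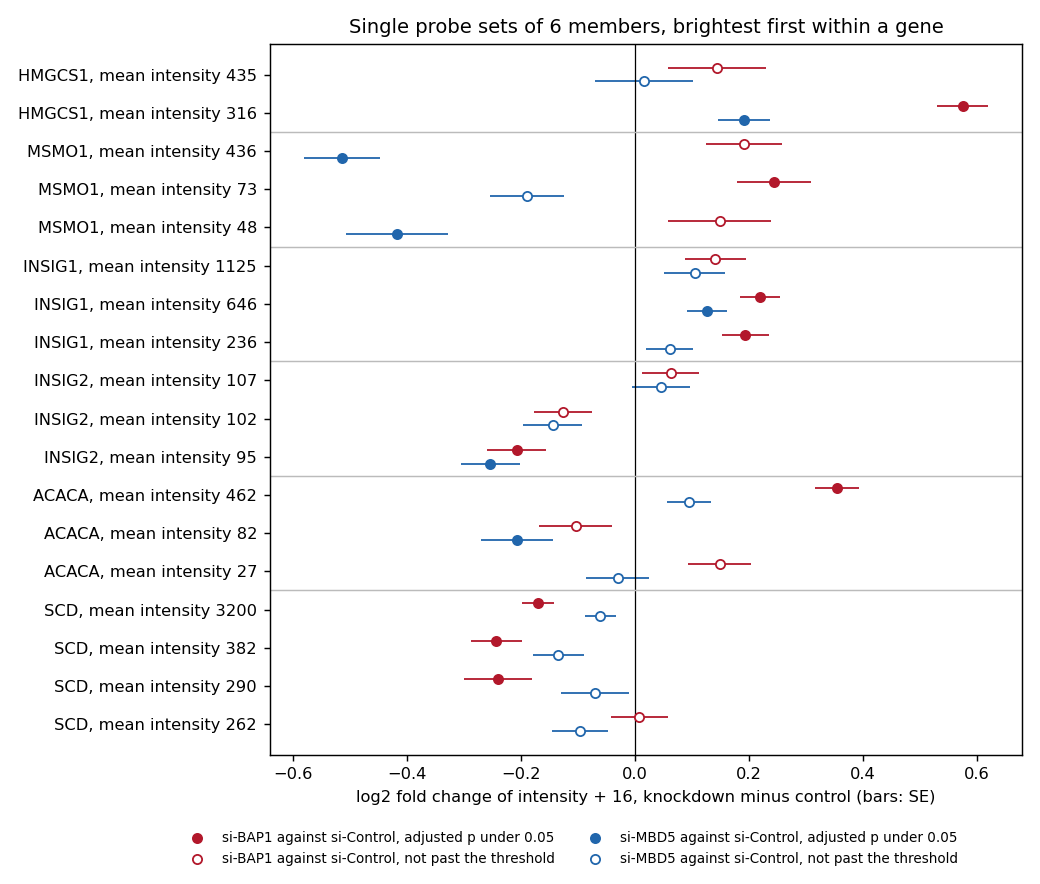
Log2 fold change of intensity plus 16 (x axis, bars 1 SE) for each probe set above the filter of 6 members, brightest first, with si-BAP1 in red, si-MBD5 in blue and filled points for adjusted p below 0.05 over probe sets. The MSMO1 probe sets share their signs, HMGCS1 passes on 1 of 2, and INSIG2 and ACACA have probe sets on both sides of 0.

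Of the 4 genes that supply acetyl-CoA and malonyl-CoA, ACACA rose and ACSS2 fell with si-BAP1, and ACSS2 fell with si-MBD5. These are 50% and 25% of only 4 genes, against 23.5% and 16.3% of all genes. ACACA, the cytosolic carboxylase that makes malonyl-CoA in the committed step of fatty acid synthesis, read 415.2, 408.3 and 412.8 in controls, 509.2, 546.9 and 538.6 with si-BAP1, and 438.7, 440.7 and 443.7 with si-MBD5. The 3 groups did not overlap, with si-BAP1 highest. ACACA rose 1.28-fold with si-BAP1 (log2 0.35 ± 0.037, limma adjusted p = 1.43e-05), and the si-BAP1 arrays exceeded the si-MBD5 arrays by 0.26 ± 0.037 (adjusted p = 0.000602). With si-MBD5 against control it was at 0.09 (adjusted p = 0.11).

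The dimmer ACACA probe sets differed in sign with si-BAP1, and neither passed there. One with a mean of 82.3 read 88.90, 82.73 and 96.93 in controls, 80.08, 88.68 and 77.57 with si-BAP1, and 69.69, 76.31 and 80.08 with si-MBD5. The si-MBD5 arrays lay below all controls, and the si-BAP1 arrays overlapped with them. It gave -0.10 with si-BAP1 (limma adjusted p = 0.296 over probe sets) and fell with si-MBD5 (-0.21, adjusted p = 0.0493). One with a mean of 27.5, just above the filter, gave 0.15 with si-BAP1 (adjusted p = 0.0807) and -0.03 with si-MBD5. Its si-BAP1 arrays lay above all controls and above all si-MBD5 arrays. Between the knockdowns these dimmer probe sets gave 0.10 (adjusted p = 0.395) and 0.18 (adjusted p = 0.0718), the same sign as the bright one. With the mean of the gene's probe sets, the si-BAP1 value of ACACA was 0.13 in place of 0.35.

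ACSS2, which makes acetyl-CoA from acetate in the cytosol and nucleus, read 185.1, 190.8 and 187.7 in controls, 141.8, 155.5 and 161.8 with si-BAP1, and 163.3, 169.2 and 160.2 with si-MBD5. Every knockdown array lay below every control, and the knockdowns overlapped with each other. ACSS2 fell 1.21-fold with si-BAP1 (log2 -0.27 ± 0.049, limma adjusted p = 0.00102) and 1.13-fold with si-MBD5 (log2 -0.18 ± 0.049, adjusted p = 0.0234). The si-MBD5 call was lost without si-Control replicate 2 (adjusted p = 0.0917), si-Control replicate 3 (0.0579), si-MBD5 replicate 1 (0.0703) or si-MBD5 replicate 3 (0.0665). ACLY, which makes acetyl-CoA from citrate, did not pass, at 0.03 with si-BAP1 and 0.08 with si-MBD5 (adjusted p = 0.0838). ACACB, the mitochondrial form of the carboxylase, was at -0.07 and 0.00.

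Among the 5 tested genes of fatty acid synthesis, elongation and desaturation, 2 fell with si-BAP1, 1 fell with si-MBD5, 2 differed between the knockdowns, and none rose. Of all genes, 11.1% fell and 12.4% rose with si-BAP1, 8.99% fell and 7.29% rose with si-MBD5, and 9.97% differed between the knockdowns, so over 5 genes none risen is not a result about them. ELOVL5, which elongates polyunsaturated fatty acids, read 1584, 1576 and 1759 in controls, 1168, 1224 and 1114 with si-BAP1, and 1445, 1386 and 1312 with si-MBD5. The 3 groups did not overlap, with si-BAP1 lowest and si-MBD5 between. ELOVL5 fell 1.40-fold with si-BAP1 (log2 -0.48 ± 0.050, limma adjusted p = 1.25e-05) and 1.18-fold with si-MBD5 (log2 -0.24 ± 0.050, adjusted p = 0.00433). The knockdowns differed by -0.24 (adjusted p = 0.00831), a call lost without si-MBD5 replicate 1 (adjusted p = 0.0541). The only other ELOVL5 probe set lay below the filter, with a mean of 24.3.

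SCD, the desaturase that makes monounsaturated from saturated fatty acids, read 3399, 3294 and 3423 in controls, 2942, 2999 and 3045 with si-BAP1, and 3305, 3203 and 3190 with si-MBD5. The si-BAP1 arrays lay below all others, and the si-MBD5 arrays overlapped with the controls. SCD fell 1.13-fold with si-BAP1 (log2 -0.17 ± 0.027, limma adjusted p = 0.000397) and was at -0.06 with si-MBD5 (adjusted p = 0.157). The difference between the knockdowns was -0.11 (adjusted p = 0.0202) and was lost in 6 of 21 alternatives, with adjusted p-values up to 0.233. Of the 3 dimmer SCD probe sets, 2 fell with si-BAP1 (-0.24 each, adjusted p = 0.00155 and 0.0107 over probe sets), and the third was at 0.01.

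FASN, the synthase that builds palmitate, read 205.2, 197.9 and 170.6 in controls, 219.6, 201.3 and 210.4 with si-BAP1, and 201.5, 192 and 208.2 with si-MBD5. The groups overlapped, and FASN did not pass (0.13 and 0.07 on the log2 scale, limma adjusted p = 0.15 and 0.526). The desaturases of polyunsaturated fatty acids FADS1 and FADS2 were both at 0.04 with si-BAP1 and at 0.02 and 0.06 with si-MBD5, none past the threshold. The other FADS1 probe sets, with means of 1169 and 838.2, had the opposite sign. They gave -0.01 and -0.03 with si-BAP1, and -0.08 and -0.13 with si-MBD5, whose arrays lay below all controls on both. None of these passed.

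ELOVL6, which elongates palmitate to stearate, was read only by 3 dim probe sets, with means of 17.6, 16.2 and 4.40 over all arrays, against a filter at 25.5. The first read 20.76, 24.10 and 23.80 in controls, 10.50, 14.26 and 14.63 with si-BAP1, and 13.96, 18.85 and 17.91 with si-MBD5. The second read 21.91, 20.97 and 22.03 in controls, 11.81, 12.88 and 12.57 with si-BAP1, and 12.38, 16.23 and 15.00 with si-MBD5. On both, every knockdown array lay below every control. In a limma fit over all 49293 probe sets without the filter, the log2 fold changes with si-BAP1 were -0.42 (adjusted p = 0.00114) and -0.41 (adjusted p = 8.78e-05), and the third probe set gave -0.09 (adjusted p = 0.0453). With si-MBD5 they were -0.24 (adjusted p = 0.0521), -0.30 (adjusted p = 0.00175) and -0.09 (adjusted p = 0.0917). In this fit 11% of all probe sets passed for si-BAP1, 6.27% for si-MBD5 and 3.55% between the knockdowns, where no ELOVL6 probe set passed. The constant of 16 is as large as these signals, so the fold changes are understated, and whether signals this dim stand above background was not tested.

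Read probe set by probe set, 20 of the 78 member probe sets above the filter passed with si-BAP1, 14 higher and 6 lower, in 13 genes. That is 25.6%, against 20.2% of all 29584 probe sets in the same fit. With si-MBD5 14 of 78 passed, 7 higher and 7 lower, in 10 genes, or 17.9% against 12.5%. Between the knockdowns 8 of 78 passed, 6 higher and 2 lower, in 6 genes, or 10.3% against 7.69%. Probe sets of 1 gene are not independent of each other, so these shares count some genes more than once.

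Other genes of sterol and fatty acid metabolism were read from 6 lists, 72 of whose genes were tested. With si-BAP1 11 of the 72 rose and 16 fell (37.5% past the threshold in limma, against 23.5% of all genes). With si-MBD5 3 rose and 11 fell (19.4%, against 16.3%), and between the knockdowns 8 were higher and 3 lower (15.3%, against 9.97%). Since these lists were chosen with results of the data known, the shares are a description.

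In the list of sterol uptake, transport and efflux, 0 of 14 tested genes rose and 5 fell with si-BAP1, and 1 rose and 3 fell with si-MBD5. The falls are 35.7% and 21.4%, against 11.1% and 8.99% of all genes, and 12.4% and 7.29% of all genes rose. In limma at an unadjusted p below 0.05, 5 of the 14 differed with si-BAP1 in either direction. ABCA1, which exports cholesterol to apolipoprotein particles, read 54.22, 60.08 and 61.51 in controls, 30.31, 32.21 and 33.01 with si-BAP1, and 35.35, 33.27 and 34.62 with si-MBD5. Every knockdown array was below every control. ABCA1 fell by 0.64 on the log2 scale with si-BAP1 (limma adjusted p = 1.56e-06) and by 0.56 with si-MBD5 (adjusted p = 1.34e-05), from its only probe set above the filter. ABCG1, an exporter of cholesterol to lipoproteins, read 154.3, 168.6 and 168.5 in controls, 111.6, 109.9 and 109.4 with si-BAP1, and 102.2, 94.90 and 100.8 with si-MBD5. Both knockdowns lay wholly below the controls. It fell by 0.51 (adjusted p = 4.62e-06) and 0.64 (adjusted p = 2.66e-06), and 2 of its 3 other probe sets above the filter passed in each comparison. VLDLR, a receptor for lipoprotein particles, read 91.95, 101.6 and 94.66 in controls, 58.79, 67.02 and 72.19 with si-BAP1, and 94.16, 112.3 and 108.4 with si-MBD5. Only the si-BAP1 arrays lay below the controls, and those of si-MBD5 overlapped with them. It fell by 0.45 with si-BAP1 (adjusted p = 0.000309), was at 0.11 with si-MBD5, and differed between the knockdowns by -0.56 (adjusted p = 0.000201).

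Among the other isoprenoid and sterol genes, 4 of 8 rose and 1 fell with si-BAP1, and 1 rose and 1 fell with si-MBD5. That is 62.5% and 25% past the threshold, against 23.5% and 16.3% of all genes. SOAT1, which stores cholesterol as esters, read 420.4, 403.6 and 428.5 in controls, 540.4, 554.3 and 558.3 with si-BAP1, and 396.6, 405.8 and 404.8 with si-MBD5. The si-BAP1 arrays lay above all others, and the remaining groups overlapped. It rose by 0.39 with si-BAP1 (limma adjusted p = 6.0e-06), was at -0.05 with si-MBD5, and was 0.44 higher in si-BAP1 than in si-MBD5 cells (adjusted p = 8.17e-06). ACAT1, the mitochondrial thiolase of ketone body and isoleucine metabolism, read 2228, 2213 and 2158 in controls, 2790, 2884 and 2778 with si-BAP1, and 2599, 2593 and 2635 with si-MBD5. The 3 groups did not overlap, with si-BAP1 highest. Like its cytosolic relative ACAT2 it rose with both, by 0.35 (adjusted p = 8.87e-07) and 0.24 (adjusted p = 5.15e-05). ERG28, a scaffold of the C4 demethylation enzymes among which MSMO1 works, rose by 0.18 with si-BAP1 (adjusted p = 0.00526) and was 0.22 higher there than with si-MBD5 (adjusted p = 0.00373). GGPS1, which extends farnesyl diphosphate for protein prenylation, fell by 0.16 with si-MBD5 (adjusted p = 0.0126).

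Of 9 tested partners in SREBP processing and sterol sensing, 1 fell with si-BAP1 and 3 fell with si-MBD5, and none rose. That is 11.1% and 33.3% of only 9 genes, against 23.5% and 16.3% of all genes past the threshold and 11.1% and 8.99% lower. With si-MBD5 these were PAQR3 (-0.29, limma adjusted p = 0.0114), which tethers SCAP and SREBP to the Golgi, the ubiquitin pathway adaptor UBXN8 (-0.21, adjusted p = 0.048), and the site-2 protease MBTPS2 (-0.13, adjusted p = 0.0371), which releases SREBPs from the membrane. With si-BAP1 it was the ubiquitin ligase MARCHF6 (-0.11, adjusted p = 0.0149), which marks squalene epoxidase for degradation.

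Of 16 other fatty acid synthesis genes, 2 rose and 2 fell with si-BAP1, and 1 fell with si-MBD5, or 25% and 6.25%, against 23.5% and 16.3% of all genes. FADS3, a relative of FADS1 and FADS2, read 475.8, 482.1 and 436 in controls, 339.5, 332.3 and 359.4 with si-BAP1, and 342.5, 348.9 and 360.5 with si-MBD5. Both knockdowns lay below all controls and overlapped with each other. It fell by 0.42 (limma adjusted p = 2.53e-05) and 0.39 (adjusted p = 0.000113), while its relatives FADS1 and FADS2 did not pass. The elongase ELOVL7 fell with si-BAP1 (-0.31, adjusted p = 0.00441), and ACSS1, the mitochondrial relative of ACSS2, rose (0.33, adjusted p = 0.00319). In glycerolipid synthesis 3 of 12 rose and 3 fell with si-BAP1 and 1 fell with si-MBD5. That is 50% and 8.33% of only 12 genes, against 23.5% and 16.3% of all genes. GPAT3, an acyltransferase of the first step, fell with si-BAP1 (-0.32, adjusted p = 0.00381), GPAM, the mitochondrial enzyme of the same step, rose (0.21, adjusted p = 0.00973), and AGPAT2, of the next step, fell with both (-0.21, adjusted p = 0.00574, and -0.175, adjusted p = 0.0253). In fatty acid oxidation 2 of 13 rose and 4 fell with si-BAP1, and 1 rose and 2 fell with si-MBD5. That is 46.2% and 23.1% of only 13 genes, against the same 23.5% and 16.3%. Of all genes, 12.4% rose and 11.1% fell with si-BAP1, and 7.29% rose and 8.99% fell with si-MBD5. The receptor PPARA was 0.29 higher with si-MBD5 (adjusted p = 0.00103), and HADHB was lower (-0.14, adjusted p = 0.041). ACADVL fell with both (-0.17, adjusted p = 0.00793, and -0.15, adjusted p = 0.0215). With si-BAP1 CPT1C fell (-0.24, adjusted p = 0.0316) and HADH rose (0.19, adjusted p = 0.00169).

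**Figure D4:**
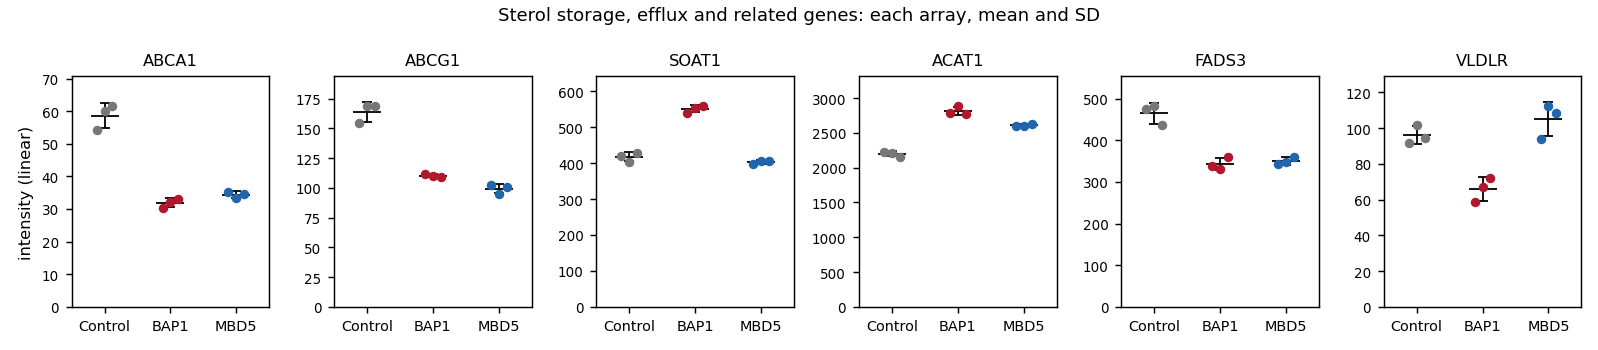
Intensity on the linear scale (y axis, from 0) on each of the 9 arrays for 6 genes next to the synthesis pathways, with horizontal lines for the mean and bars for 1 SD (n = 3). ABCA1, ABCG1 and FADS3 are low in both knockdowns, ACAT1 is high in both, SOAT1 is high with si-BAP1 (540.4 to 558.3) and VLDLR is low with si-BAP1 (58.79 to 72.19).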

How the data were processed

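The deposited values are 1 intensity per probe set and array on a linear scale, made with MAS5 per the submitters' processing notes; its version, scaling and chip definitions are not given in the sources used here. Each array took biotin-labelled cRNA from 6 ug of Trizol-extracted RNA, per the labels' protocols. The near-equal medians show that the authors' intensity values were already scaled, so no scaling was added. Gene names came from the platform annotation: 44988 probe sets had 1 symbol, 1832 several and 2473 none, and 102 controls were left out. Symbols were matched by gene identifier to RefSeq's gene list, with 44961 matched and 27 kept.

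Values were taken as log2(intensity + 16), with probe sets below the 40th percentile of mean intensity (25.5) left out. Each gene's value is that of the probe set with 1 symbol and the highest mean over all arrays. limma 3.58.1 in R 4.3.3 fitted 3 group means to all 9 arrays (6 residual degrees of freedom, eBayes with an intensity trend), and p-values were adjusted by Benjamini-Hochberg over 12434 genes, or over 29584 probe sets. The number of arrays limits the precision: the median SE of a log2 fold change was 0.046 for members and 0.051 for all genes. The fit was tried on simulated data for si-BAP1 against si-Control (12434 genes). It found 2% of changes of 0.1 on the log2 scale, 48% of 0.25, 96% of 0.5 and 100% of 1. The simulation changed a far smaller share of genes than the 23.5% called in the data. Its Benjamini-Hochberg cutoff was therefore stricter, and these rates are not those of the data. A member that did not pass may still have changed.

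Values per array, fold changes and p-values were given for members past the threshold, and for members with another probe set past it. From each other list up to 3 genes past the threshold with the largest change were named. Members and lists were chosen with earlier results of these data known. Alternatives were the added constant, filter, scaling, probe set rule, array weights, trend, the groups fitted, a replicate block and each array left out.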

Additional observations from a re-analysis of the deposited data

Results flagged for a closer look

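A direct contrast between the knockdowns passed the limma threshold for 4 of 33 members (12.1%, against 9.97% of all genes). The control arrays do not enter its fold changes, but they share in the estimate of the spread behind its p-values. When only the 2 groups compared were fitted, the same 4 members passed, with 952 of 12434 genes called in place of 1240. MSMO1 was 0.7066 higher on the log2 scale in si-BAP1 than in si-MBD5 cells, with 529.2 ± 46.3 against 317.7 ± 18.8 (SD, n = 3 each). ACACA was 0.2601 higher (531.6 ± 19.8 against 441 ± 2.54), on its brightest probe set. ELOVL5 was lower by -0.2375 (1169 ± 54.9 against 1381 ± 66.7), and SCD by -0.1095 (2995 ± 51.5 against 3233 ± 63.1). The SCD call was lost in 6 of 21 alternatives (adjusted p up to 0.233) and the ELOVL5 call in 1 (adjusted p = 0.0541). In each of the 4 members, all 3 arrays of one knockdown lay on one side of all 3 of the other. These members were picked by this same contrast, so the separation adds no support. FDPS, ACACB and SREBF2 were separate in the same way and did not pass. The share of all genes that separate in this way was not counted, so the separation is not read as a result about the members.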

How the results depend on the processing

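Of 17 member calls, 11 passed in every alternative in which the gene was tested, 6 were lost in at least 1, and 0 reversed. FDPS, ELOVL5 and SCD could not be tested without cross-hybridizing probe sets. The counts past the threshold moved most with array weights, which gave 16, 13 and 7 members for si-BAP1 against control, si-MBD5 against control and si-BAP1 against si-MBD5, in place of 7, 6 and 4. Over all genes that setting called 4492, 3081 and 1837, in place of 2918, 2025 and 1240, and the cause was not tested. The mean of a gene's probe sets gave 12 members for si-BAP1 against control. Leaving out 1 array gave 7 to 10, 3 to 7 and 2 to 5 members, with the lowest counts without si-Control replicate 2 for si-MBD5 against control (3) and without si-MBD5 replicate 1 between the knockdowns (2); fewer arrays leave less power. With a replicate block the counts were 7, 7 and 4. Same-numbered arrays did not consistently deviate together (correlations from -0.433 to 0.48), so the replicate numbers are taken as names only. Different-numbered arrays of different groups ran from -0.556 to 0.47. The pair si-BAP1 1 and si-MBD5 3 was at 0.47, and si-MBD5 3 and si-Control 1 at 0.404. Some arrays thus deviated together across the numbers, which a block by replicate number does not take up. Its part in the results was not tested.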
